A study of Cyanidioschyzon merolae strain 10D with 6 samples.

Results

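The 40 genes described here are the outermost annotated genes of the nuclear chromosomes of Cyanidioschyzon merolae 10D, a single-celled red alga of hot acidic springs. For each of the 20 nuclear chromosomes the gene with the smallest start (left end) and the gene with the largest end (right end) were taken from the deposited gene annotation, which gives 40 of 4984 annotated genes (4743 of them nuclear). Polyadenylated RNA was counted in 3 libraries of wild type 10D and in 3 libraries of Cme(z)-1, a mutant of the Polycomb gene E(z). All cultures grew at 42 °C and a pH between 2.5 and 3.0 in constant light, and no library had a treatment beyond that. The labels give a single mutant line and do not say that replicates were separate cultures, so p-values here rest on a spread between libraries that may be technical only, and any other trait of that line cannot be told apart from the loss of E(z).

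Libraries held between 7860491 and 10754544 counts. The E(z) gene CMQ156C (build ASM9120v1, chromosome 17, 379207 to 381546, plus strand, single coding exon) was read 1776, 1533 and 1770 times in the wild-type libraries and 0 times in each mutant library. Against a floor of 3 counts per library this transcript was lower in the mutant, as labelled, by at least 671-fold.

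E(z) is the enzyme of Polycomb Repressive Complex 2 (PRC2), which adds methyl groups to a lysine of histone H3 and thereby marks chromatin that is kept silent. In animals and plants the complex is known for holding developmental genes off, and in several fungi it marks chromatin close to telomeres. Subtelomeres, the stretches inside the telomere repeats, often carry families of near-identical genes and remains of transposable elements (TEs). Gypsy and Copia elements are retrotransposons with long terminal repeats, which move through an RNA copy. Harbinger, Mutator and hAT elements are DNA transposons, which move as DNA by means of a transposase.

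None of the 40 genes carries a name or product in the annotations used, so no function is given for any of them. All 40 are annotated as protein coding with a single exon, and they are between 456 and 3565 bp long. They begin between 1345 and 9429 bp from their chromosome end, with a median of 3483.5 bp, where the right end is the last annotated base. A TE copy overlaps 24 of them by at least 1 base, and 13 are covered over 50% or more of their length. Most read outward: 15 of the 20 left genes lie on the minus strand and 13 of the 20 right genes on the plus strand, so 28 of 40 are transcribed toward their end.

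In the mutant 13 of these genes rose, 1 fell, 24 did not pass and 2 had too few counts to be tested. A call required an adjusted p under 0.05 in the edgeR quasi-likelihood test, with Benjamini-Hochberg adjustment over 4865 genes and 2776 TE copies together. Of all genes tested 1.29% were raised and 1.83% lowered, against 34.2% of the 38 tested outermost genes raised. In 21 of those 38 genes every mutant library lay above every wild-type library, a pattern seen in 8.12% of all genes tested, and in 1 gene every mutant library lay below, a pattern seen in 12.8%. The log2 fold change (mutant over wild type) was positive in 33 of the 38, against 43% of all genes tested, and its median was 0.29 against -0.031. Among the 38, CMS002C passed the low-count filter through its mutant counts alone, and both untested genes were read more often in the mutant. Without wild-type replicate 1 the raised genes of the whole table went from 63 to 35 and those among the outermost to 12, and without mutant replicate 1 they went to 39 and 13.

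**Figure D1:**
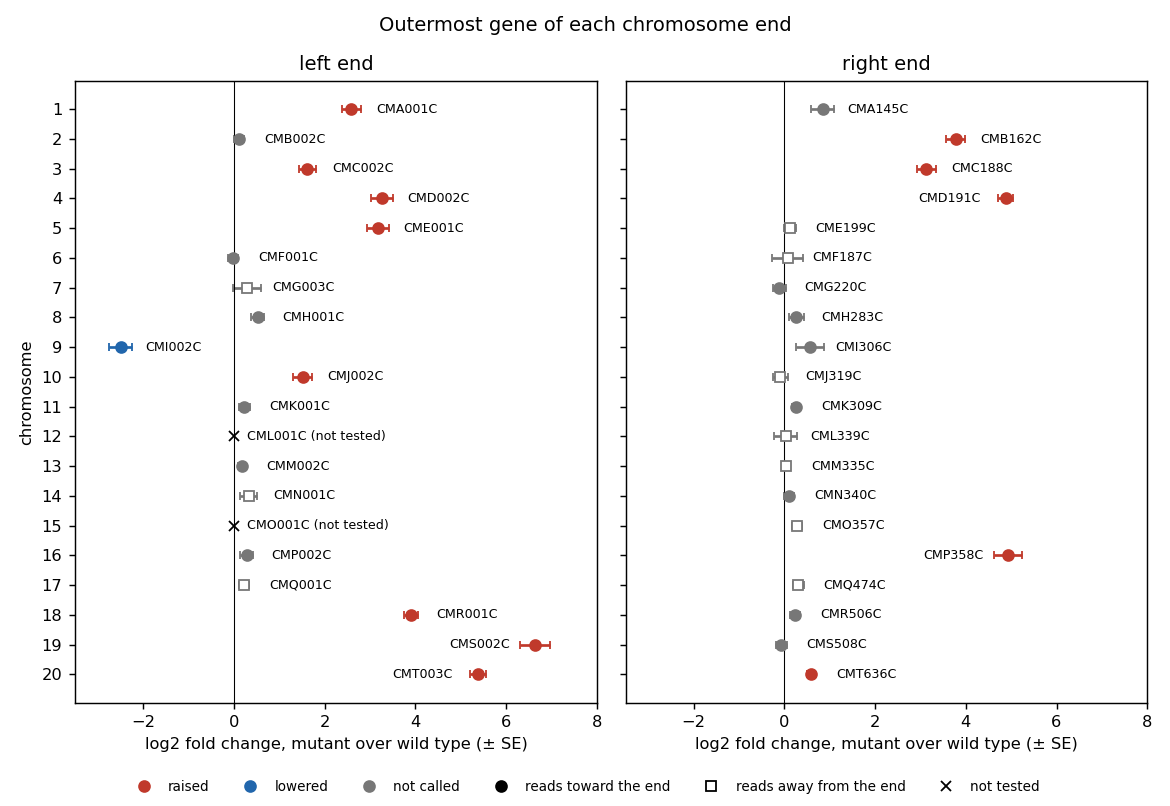
Log2 fold change (mutant over wild type, horizontal axis, bars ± SE from the F statistic, 3 libraries per group) of the outermost gene of each of the 20 chromosomes (vertical axis), left ends in the left panel and right ends in the right panel. Red points were raised, the blue point lowered and grey symbols not called; filled circles read toward the chromosome end, open squares away from it, and crosses mark the 2 genes not tested. All 13 raised genes are filled circles.

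Both ends held raised genes, and every called gene read toward its end. At the left ends 8 of 18 tested genes were raised and CMI002C was lowered. At the right ends 5 of 20 were raised. By strand, 8 of 22 minus-strand genes and 5 of 16 tested plus-strand genes were raised. Grouped by direction, 13 of 28 genes that read toward the end were raised and 1 was lowered. Of the 10 tested genes that read away from it 0 were called by edgeR, against 1.29% raised and 1.83% lowered of all genes tested. Among 10 genes a count of 0 is near those shares. An unadjusted p under 0.05 was seen in 2 of these 10 genes, and neither DESeq2 nor limma voom called any of them. The outward-reading genes had a median log2 fold change of 0.58 and the inward-reading ones of 0.17, and no test of this difference was made. Chromosomes 3, 4 and 20 had a raised gene at both ends, 7 chromosomes at a single end and the other 10 at neither, as the plot of fold changes by chromosome shows.

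Most of the raised genes were weakly read in the wild type, but not all. Per kilobase of gene length, their median level was 8.66 CPM in the wild type and 95.0 CPM in the mutant, where CPM is the count scaled by library size and TMM factor. In the wild type 9 of them lay between 0.15 and 13.2 CPM per kilobase, and the other 4 were CMC188C (36.0), CMJ002C (79.8), CMT636C (87.7) and CMC002C (171). The uncalled outermost genes had medians of 140 and 158 CPM per kilobase, and all nuclear genes of 88.3 and 85.6. Before the mutant rise the 13 genes thus had a median below that of either set, and in the mutant it was close to the nuclear median.

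The genes fell into a few layouts by the TE annotation around them, a division made after the values were seen and therefore given without a test. The plot of levels in every library uses letters A to G for these layouts.

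**Figure D2:**
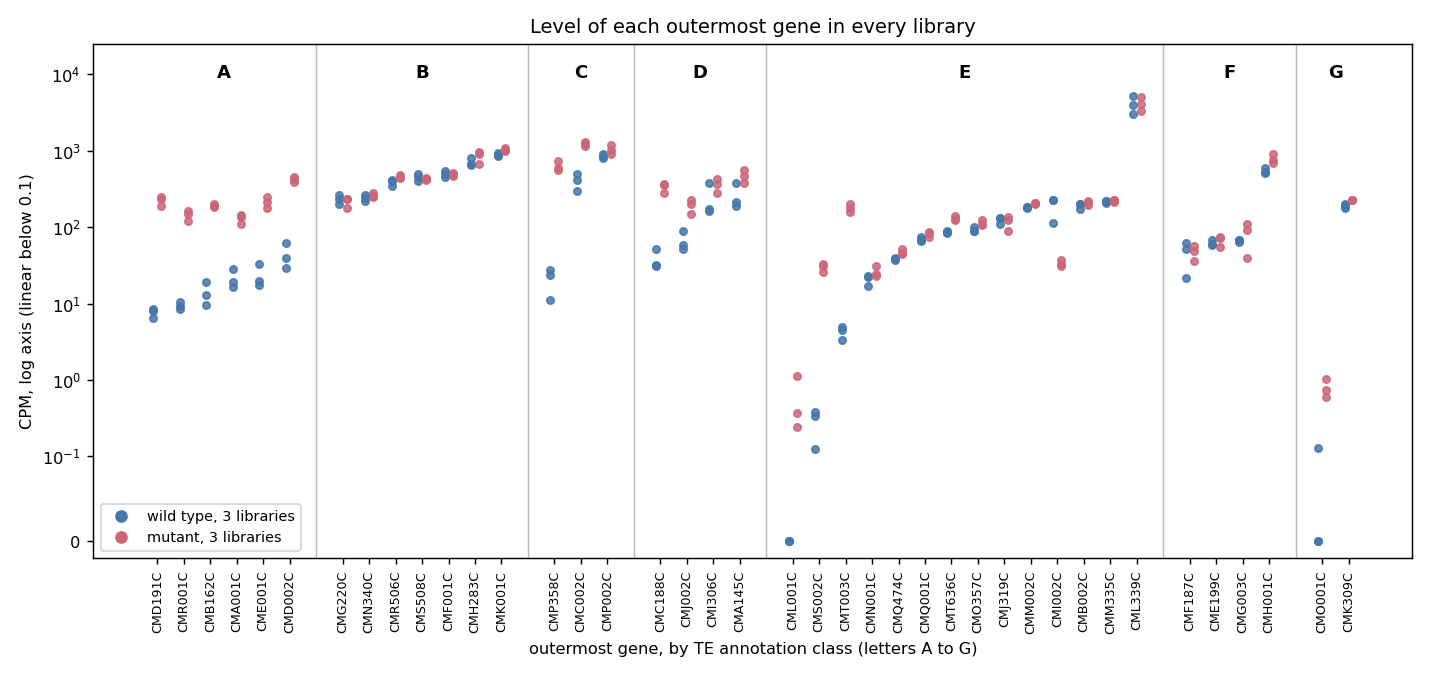
Level of each outermost gene in CPM (vertical axis, logarithmic above 0.1 and linear below) in the 3 wild-type libraries (blue) and the 3 mutant libraries (red), 1 point per library. Letters mark the TE layout. A is Copia rnd-1_family-62 over the gene, B is Harbinger rnd-1_family-57 over most of it, and C is that Harbinger family over part of it. D is Gypsy rnd-1_family-2 over all of it, and E is Gypsy rnd-1_family-9 beside it. F is rnd-1_family-38 with rnd-1_family-59, in arrays of short copies at all but CMF187C, and G is other. All 6 genes of A lie clear of their wild-type values in the mutant, and the genes of B lie between 176 and 1083 CPM in all libraries.

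A Copia element over the outer part of the gene marked 6 ends, and all 6 of these genes rose. They are CMA001C (chromosome 1, 3374 to 6125, minus strand), CMD002C (chromosome 4, 3379 to 6664, minus), CME001C (chromosome 5, 3352 to 6058, minus) and CMR001C (chromosome 18, 3368 to 6125, minus) at left ends, with CMB162C (chromosome 2, 450845 to 453631, plus) and CMD191C (chromosome 4, 507324 to 510080, plus) at right ends. Each is overlapped by a copy of the repeat family rnd-1_family-62, and TE copies together cover 42.9% to 49.9% of its length. The 49.9% is that of CMD002C, where it includes bases covered by a hAT copy, TE_homo_403 (chromosome 4, 3681 to 5019). That copy was itself raised (log2 fold change 3.03, SE 0.29, adjusted p = 4.7e-04). They are between 2707 and 3286 bp long.

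The lowest wild-type level of the 6 was that of CMD191C, with 7.88, 6.54 and 8.46 CPM in the wild-type libraries and 236, 246.5 and 191 CPM in the mutant libraries. Its mutant values lay far above, without overlap, at a log2 fold change of 4.88 (SE 0.16, adjusted p = 5.1e-07). CMD002C, at the opposite end of the same chromosome, had 39.6, 29.4 and 61.5 CPM in the wild type and 422.5, 451 and 384 CPM in the mutant. It was the highest of the 6 in both groups, the groups did not overlap, and its log2 fold change was 3.27 (SE 0.24, adjusted p = 7.9e-05).

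CMR001C had 9.33, 8.60 and 10.6 CPM in the wild type and 161, 146.5 and 122 CPM in the mutant (log2 fold change 3.91, SE 0.15). CMB162C had 19.3, 12.8 and 9.47 CPM in the wild type and 198, 186 and 189 CPM in the mutant (3.77, SE 0.22). In both genes the mutant libraries lay close together and far above the wild type. CME001C had 19.9, 17.3 and 33.1 CPM in the wild type and 212, 249.6 and 178 CPM in the mutant (3.19, SE 0.24). CMA001C had the smallest rise of the 6, from 19.1, 16.4 and 28.6 CPM to 134, 143 and 109.9 CPM (2.59, SE 0.20, adjusted p = 1.3e-04). Wild-type replicate 3 was the highest wild-type library in every gene of this layout except CMB162C, where it was the lowest. Per kilobase the 6 genes ranged from 2.77 to 13.2 CPM in the wild type and from 46.8 to 128 CPM in the mutant.

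A Harbinger element of rnd-1_family-57 covered 86.7% to 88.8% of 7 outward-reading genes. Of the 7, 0 were called by edgeR, DESeq2 or limma voom, or had an unadjusted p under 0.05. By edgeR 1.29% of all genes tested were raised and 1.83% lowered, so a count of 0 among these 7 is near those shares. These genes, named together after their values were seen, are CMF001C, CMG220C, CMH283C, CMK001C, CMN340C, CMR506C and CMS508C. They were read at 110 to 407 CPM per kilobase in the wild type and 116 to 478 in the mutant. Their log2 fold changes lay between -0.11 and 0.26, with adjusted p from 0.35 to 0.96 in the edgeR test. CMK001C, the most abundant of them, had 877, 849.7 and 929 CPM in the wild type and 1083, 1008 and 1031 CPM in the mutant (log2 fold change 0.23, SE 0.12, adjusted p = 0.38). Its groups did not overlap, although the test was not passed. CMG220C had 230.3, 202 and 260.0 CPM in the wild type and 232, 176 and 232 CPM in the mutant, so its groups overlapped (log2 fold change -0.11, SE 0.14). These genes share orientation and distance from the end (2895 to 3340 bp) with the Copia layout (2291 to 3379 bp).

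Where a shorter Harbinger copy of the same family covered 37.3% to 38.5% of the gene and a Gypsy copy of rnd-1_family-9 lay outside it, 2 of 3 genes rose. These are CMC002C (chromosome 3, 4015 to 6349, minus), CMP002C (chromosome 16, 4034 to 6323, minus) and CMP358C (chromosome 16, 902164 to 904479, plus), which are within 3% of one another in length. CMP358C had 11.2, 23.7 and 27.3 CPM in the wild type and 593.5, 741.5 and 552 CPM in the mutant. Its log2 fold change was 4.93 (SE 0.31, adjusted p = 3.1e-05), with no overlap. CMC002C was already at 296, 496 and 408.5 CPM in the wild type and reached 1235, 1314 and 1144 CPM in the mutant (1.62, SE 0.19, adjusted p = 0.0016). Its rise was also clear of overlap, but it did not pass a test against a 2-fold change (adjusted p = 0.066). CMP002C had 803, 902 and 854.5 CPM in the wild type and 1024, 903 and 1182 CPM in the mutant (0.28, SE 0.14, adjusted p = 0.37). The mutant values of CMP002C were higher without overlap, although mutant replicate 2 lay just above the highest wild-type library.

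A Gypsy copy of rnd-1_family-2 spanned all of 4 genes, of which 2 rose. CMA145C (chromosome 1, 417033 to 418097), CMC188C (chromosome 3, 476222 to 477286) and CMI306C (chromosome 9, 804566 to 805630) are plus-strand genes of exactly 1065 bp at right ends. CMJ002C (chromosome 10, 4508 to 5339, minus) is a left gene of 832 bp. CMC188C had 30.9, 52.2 and 32.0 CPM in the wild type and 363, 357 and 283 CPM in the mutant (log2 fold change 3.13, SE 0.21, adjusted p = 4.9e-05). It was the weakest of the 4 in the wild type and its groups were far apart.

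CMJ002C had 52.2, 88.1 and 58.9 CPM in the wild type and 223.5, 198 and 147 CPM in the mutant (log2 fold change 1.51, SE 0.22, adjusted p = 0.0044, and 0.23 against a 2-fold change). CMA145C had 215, 382 and 189 CPM in the wild type and 556, 474 and 377 CPM in the mutant (0.84, SE 0.26, adjusted p = 0.12). CMI306C had 172, 384 and 164 CPM in the wild type and 422, 367 and 278 CPM in the mutant (0.57, SE 0.31, adjusted p = 0.41). In CMA145C and CMI306C wild-type replicate 2 reached into the range of the mutant libraries, so the groups overlapped. That library was the highest wild-type library in all 4 genes, with a highest-to-lowest ratio of 1.69 in CMC188C and CMJ002C, 2.02 in CMA145C and 2.34 in CMI306C. Without wild-type replicate 2 CMA145C (adjusted p = 0.0085) and CMI306C (0.014) were called raised, and DESeq2 called CMA145C with all libraries (0.014).

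A Gypsy copy of rnd-1_family-9 beside the gene, with at most 0.86% of the gene overlapped, was the commonest layout, with 14 genes. Of its 13 tested genes 3 rose and 1 fell. The largest log2 fold change and the sole fall among all outermost genes were both found here, in a trio of left, minus-strand genes that start 3447 to 3520 bp from the end.

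CMS002C (chromosome 19, 3520 to 5401) was all but silent in the wild type, with counts of 3, 3 and 1, while the mutant libraries counted 280, 269 and 329. The ratio of counts was 104, with a 95% exact binomial interval of 50.3 to 260 that covers counting error only (fitted log2 fold change 6.65, adjusted p = 1.1e-05). CMT003C (chromosome 20, also 3520 to 5401) was counted 30, 39 and 36 times in the wild type and 1690, 1656 and 1926 times in the mutant, or 4.29 ± 0.864 against 179 ± 21.7 CPM (SD, n = 3; log2 fold change 5.38, SE 0.17, adjusted p = 5.1e-07). Both were almost unread in the wild type and rose in every mutant library. CMI002C (chromosome 9, 3447 to 5349) moved the other way, from 228, 224.5 and 114 CPM to 31.3, 36.8 and 32.5 CPM (-2.50, SE 0.25, adjusted p = 6.1e-04). Wild-type replicate 3 had the lowest CMI002C level of its group, 2.0 times below the highest, and was still above all mutant libraries.

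CMI002C, at 1903 bp, is 1.12% longer than CMS002C and CMT003C at 1882 bp each. Summed over the 3 genes, the wild-type libraries had 231, 229.9 and 118.5 CPM and the mutant libraries 214, 269 and 243 CPM. The sums overlapped (ratio of means 1.25, two-sided exact permutation p = 0.4, n = 3 per group). This trio is not a group of the 3% length grouping described below and was joined after the values were seen. It joins the sole fall with the largest rise, so the choice of genes drew the sum toward no change. The overlap and its p therefore decide nothing about these genes. In the wild type nearly all of the sum came from CMI002C and in the mutant most came from CMT003C. How the authors' counting treated reads that map to several places is not given in the sources used here, and the sequences were not analysed, so the share of reads moved between these genes was not tested.

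CMT636C (chromosome 20, 1616575 to 1617561, plus) had 83.9, 85.7 and 90.1 CPM in the wild type and 126, 139 and 124 CPM in the mutant. It had the smallest called rise, at a log2 fold change of 0.58 (SE 0.093, adjusted p = 0.0069), with no overlap. It was not called without wild-type replicate 1 (adjusted p = 0.057). The 9 uncalled genes of the layout included CML339C (chromosome 12, 853983 to 855627, minus), the most abundant outermost gene. CML339C had 4022, 5167 and 3075 CPM in the wild type and 4139, 5062 and 3293 CPM in the mutant (0.027, SE 0.25, adjusted p = 0.97). Its groups overlapped almost completely, and replicate 2 was the highest and replicate 3 the lowest library in each group.

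CML001C (chromosome 12, 5065 to 5538, plus) and CMO001C (chromosome 15, 6558 to 8069, plus) were not tested because of low counts. CML001C was read 0 times in each wild-type library and 12, 2 and 4 times in the mutant libraries. Its mutant mean was 1.58 times a floor of 3 counts per library, but mutant replicate 2, with 2 counts, lay under that floor. CMO001C was read 0, 1 and 0 times in the wild type and 8, 5 and 11 times in the mutant, a count ratio of 19.9 with a 95% interval of 3.25 to 819. Both were higher in every mutant library than in any wild-type library, at levels near the limit of detection.

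Copies of rnd-1_family-38 (Gypsy) and rnd-1_family-59 (Mutator) marked 4 further ends. They form arrays of short copies except outside CMF187C, where 2 copies of 575 and 865 bp lie. Of the 4 genes 0 were called by edgeR, against 1.29% raised and 1.83% lowered of all genes tested. An unadjusted p under 0.05 was seen in CMH001C alone. The 4 genes are CME199C, CMF187C, CMG003C and CMH001C, named after their values were seen. CMH001C (chromosome 8, 1345 to 4909, minus), the longest and outermost of all 40, had 506, 529.7 and 591 CPM in the wild type and 752, 685 and 899 CPM in the mutant. Its groups did not overlap (log2 fold change 0.52, SE 0.14, adjusted p = 0.077), and DESeq2 called it (adjusted p = 0.0033). CMG003C had 68.8, 67.1 and 64.2 CPM in the wild type and 93.0, 39.4 and 112 CPM in the mutant (0.29, SE 0.31, adjusted p = 0.70). Mutant replicate 2 alone lay below the wild type, and without it the gene was called raised (adjusted p = 0.027). The last outermost gene, CMK309C, beside a copy of rnd-1_family-2, was not called (0.26, SE 0.090, adjusted p = 0.17).

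By the amount of overlap, as distinct from the layout, the calls divided differently. Of the 24 genes with at least 1 base of TE overlap 10 were raised, and of the 14 tested genes with none 3 were raised and 1 lowered. Of the 13 genes covered over 50% or more 2 were raised, and of the 25 tested genes covered less 11 were raised and 1 lowered.

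Genes of like length at different chromosome ends were summed, since reads of near-identical copies could move between them. Sorted by length and grouped within 3%, the 40 genes gave 20 groups, of which 10 held 2 or more genes (30 genes in all). In 7 of these 10 the mutant sum lay above the wild-type sum in every library, and in 0 did it lie below. The 7 include a group of 1843 to 1882 bp that holds CMS002C and CMT003C with the uncalled CMG220C and leaves CMI002C alone in a group of its own, whereas the sums of the trio with CMI002C overlapped. With 3 libraries a side the smallest two-sided exact permutation p is 0.1, which each of the 7 reached. The group of 2707 to 2787 bp (5 genes of the Copia layout, all raised) went from 75.5, 61.7 and 90.2 CPM to 941, 971 and 790.0 CPM, a ratio of means of 11.9. The group of 2290 to 2335 bp (CMC002C, CMP002C, CMP358C) went from 1110, 1422 and 1290 CPM to 2852, 2959 and 2878 CPM, a ratio of 2.27. No gene of either group had a negative log2 fold change.

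**Figure D3:**
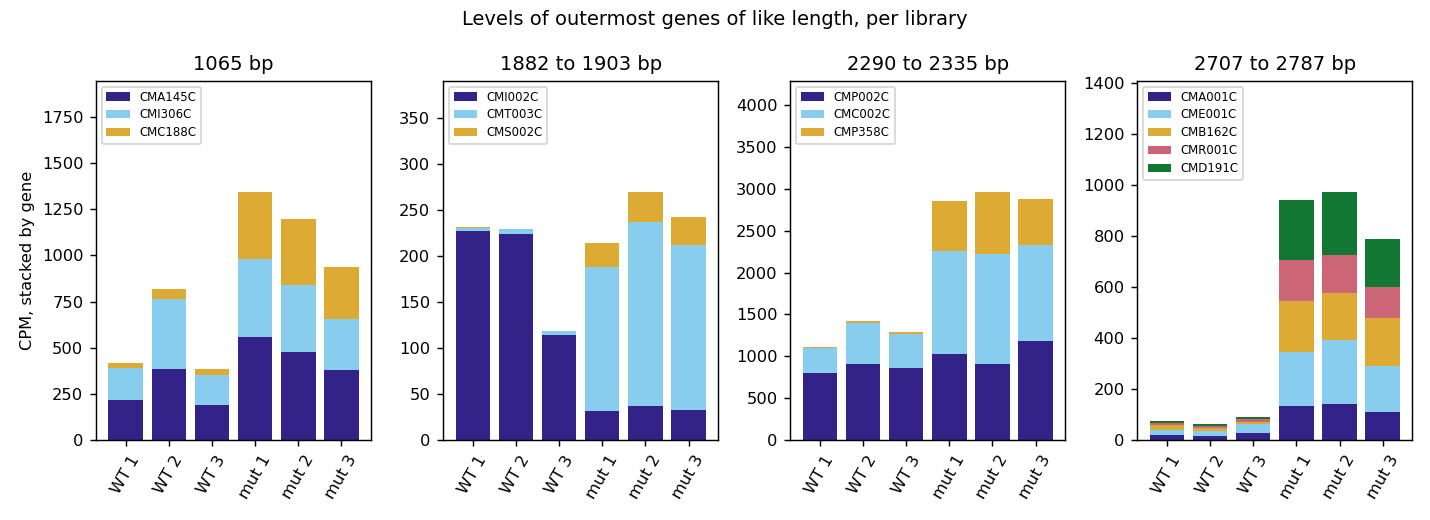
Summed level in CPM (vertical axis, linear from 0, scale differs by panel) of outermost genes of like length in each wild-type (WT) and mutant (mut) library, stacked by gene. In the panel of 1882 to 1903 bp, a trio joined after the values were seen, the sums overlap. There CMI002C is lower in the mutant, and CMT003C and CMS002C are higher. In the other 3 panels every mutant bar is higher than every wild-type bar.

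The 3 genes of 1065 bp summed to 418, 818 and 385 CPM in the wild type and 1342, 1198 and 938 CPM in the mutant, a ratio of 2.15. The sums did not overlap, although those of CMA145C and CMI306C alone did. CMJ002C summed with the uncalled CMO357C (832 and 847 bp; 0.28, SE 0.10, adjusted p = 0.19) rose 1.90-fold without overlap. CMO357C itself had 89.1, 89.2 and 99.9 CPM in the wild type and 109, 105 and 123 CPM in the mutant, higher in all mutant libraries. The 6 uncalled genes of 2157 to 2199 bp went from 2680, 2464 and 2808 CPM to 2897, 2901 and 2912 CPM, a ratio of 1.10. The stacked plot of like-length genes shows the 1065 bp group beside the trio that contains CMI002C.

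Lengths depend on the gene models. In a RefSeq gene table of the same assembly 35 of the 40 genes start and end within 4 bases of the deposited models, and 5 do not. CML001C, CMN001C and CMQ474C, at 474, 729 and 730 bp in the deposited annotation, are each 1698 bp in RefSeq, the same length there as CMQ001C and CMJ319C. All 5 of these genes lie beside rnd-1_family-9, read away from their end and were not called or not tested, and their sum was 266.5, 230.1 and 261 CPM in the wild type against 282, 229 and 303 CPM in the mutant (two-sided exact permutation p = 0.5). CMG220C is 2187 bp in RefSeq, like the other uncalled Harbinger genes. With RefSeq lengths CMI002C, CMS002C and CMT003C form a single group, and 5 of 10 groups had mutant sums above all wild-type sums.

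Over all 40 genes the sum was 11260, 12850 and 10710 CPM in the wild type and 16300, 16780 and 15080 CPM in the mutant. The mutant libraries were higher without overlap, at a ratio of means of 1.38 (two-sided exact permutation p = 0.1). Without the abundant CML339C the ratio was 1.58, from 7518 ± 246 to 11890 ± 237 CPM (SD, n = 3). The 13 raised genes alone went from 736 ± 129 to 4042 ± 388 CPM (SD, n = 3), and the 24 uncalled genes from 10680 ± 1006 to 11980 ± 494 CPM with overlap. Outermost genes took 1.08% to 1.23% of all counts in the wild-type libraries and 1.60% to 1.67% in the mutant libraries.

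TE copies at the same ends were counted apart from the genes. Of 105 copies that overlap an outermost gene or lie between it and the end, 66 could be tested, and 22 were raised and 1 lowered, against 7.1% raised and 1.04% lowered among all TE copies tested. All 11 copies that overlap a raised gene were raised, against 2 of the 12 tested copies that overlap an uncalled gene. With copies outside the gene left out, 13 remained raised, and between 15 and 22 of all were raised with 1 library left out. Of the 66 tested copies 6 reached the low-count cutoff in no wild-type library, and 5 of these were raised: TE_homo_267, TE_homo_559, TE_homo_924, TE_homo_4070 and TE_homo_4411. They passed the filter through their mutant counts alone, and 17 of the other 60 were raised. Some of these 17 also passed only with mutant libraries, among them TE_homo_402, TE_homo_560 and TE_homo_927. The filter asked for 1.14 CPM in 3 libraries, and in these copies not every wild-type library reached it. The share raised among the other 60 is thus not free of the filter. Of the 22 raised copies 14 were called in every run with a library left out, and of the 11 over raised genes 8 were. TE_homo_1331, over the uncalled CMH283C, lost its call in 5 of the 6 runs (adjusted p from 0.055 to 0.16). TE_homo_927, outside the uncalled CMG003C, also lost its call in 5 (0.061 to 0.095). TE_homo_560, over CME001C, and TE_homo_3384, over CMP358C, were not called without wild-type replicate 1 (adjusted p = 0.086 and 0.070), and TE_homo_1592, over CMJ002C, was not called in 4 of the 6 runs (adjusted p from 0.052 to 0.071).

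The libraries carry no strand, and gene and copy counts did not follow shared positions alone. CMS508C had wild-type counts of 4041, 3132 and 3918, while TE_homo_4410, which covers 88.6% of it, had 42, 17 and 9. CMC188C, which lies wholly inside TE_homo_401, had mutant counts of 3916, 2954 and 3040, above the 3124, 2671 and 2521 of that copy. How the authors divided reads between a gene and a copy over it is not given in the sources used here.

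**Figure D4:**
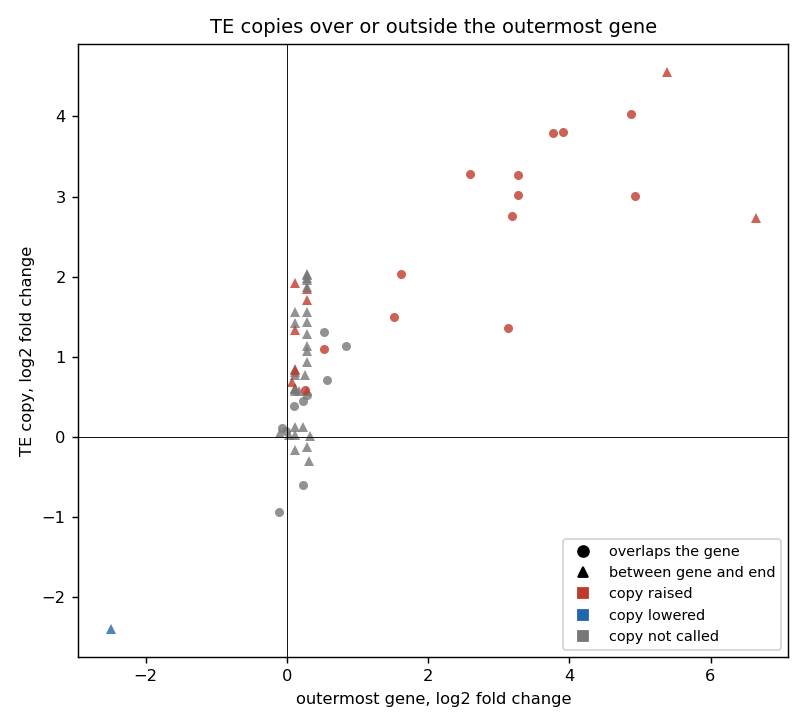
Log2 fold change (mutant over wild type) of each tested TE copy (vertical axis) against that of its outermost gene (horizontal axis), for 64 copies. Circles overlap the gene and triangles lie between gene and chromosome end, with raised copies in red, lowered in blue and uncalled in grey. Copies at raised genes all lie in the upper right, and the lowered copy beside CMI002C lies farthest to the lower left. The uncalled TE_homo_1101, over CMG220C, also has both values below 0. The copy with 0 wild-type counts, TE_homo_924, is left out, as is TE_homo_2100, whose gene CML001C was not tested.

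The 6 copies of rnd-1_family-62 over the Copia-layout genes were all raised, with log2 fold changes from 2.76 to 4.04. TE_homo_0 (chromosome 1, 1088 to 4553), over CMA001C, had wild-type counts of 73, 47 and 92 and mutant counts of 818, 912 and 690 (3.28, SE 0.28, adjusted p = 2.2e-04). TE_homo_267 (chromosome 2, 452420 to 455921), over CMB162C, had wild-type counts of 3, 2 and 1 and mutant counts of 30, 50 and 20, a count ratio of 13.8 with a 95% interval of 6.14 to 38.6. All mutant libraries were higher in both. The copies differ in depth although each spans most of the distance between its gene and the end.

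Gypsy copies of rnd-1_family-9 lie outside the trio of CMS002C, CMT003C and CMI002C. TE_homo_4411 (chromosome 20, 294 to 3417), outside CMT003C, had wild-type counts of 3, 3 and 7 and mutant counts of 102, 163 and 99 (log2 fold change 4.56, SE 0.50, adjusted p = 0.0011). TE_homo_4070 (chromosome 19, 295 to 3417), outside CMS002C, had wild-type counts of 2, 2 and 4 and mutant counts of 23, 20 and 23 (2.73, SE 0.46, adjusted p = 0.010). TE_homo_1332 (chromosome 9, 215 to 3339), outside the lowered CMI002C, had wild-type counts of 160, 139 and 48 and mutant counts of 26, 28 and 23 (-2.40, SE 0.44, adjusted p = 0.015). These copies end 102 to 107 bases from the gene they accompany, do not overlap it, and each changed in the same direction as it. Leaving out a library ended the call of TE_homo_1332 in 3 runs, with an adjusted p of 0.065 (wild-type replicate 1), 0.070 (mutant replicate 1) and 0.054 (mutant replicate 3). TE_homo_4070 likewise lost its call in the run without wild-type replicate 1 (0.066).

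Near the uncalled genes with copies of rnd-1_family-38 and rnd-1_family-59 some TE copies rose while the gene did not pass. The 4 longest Mutator copies of rnd-1_family-59, between 844 and 915 bp, were all raised, at the right ends of chromosomes 5 and 6 and the left ends of chromosomes 7 and 8. TE_homo_926 (chromosome 7, 1287 to 2130), outside CMG003C, had wild-type counts of 437, 304 and 275 and mutant counts of 950, 1358 and 1603 (log2 fold change 1.71, SE 0.23, adjusted p = 0.0033). TE_homo_1102 (chromosome 8, 1286 to 2129), over the outer part of CMH001C, had wild-type counts of 4649, 3882 and 3362 and mutant counts of 8644, 10625 and 10538 (1.09, SE 0.19, adjusted p = 0.0099). The remaining pair, TE_homo_749 (0.83, SE 0.20, adjusted p = 0.048) and TE_homo_925 (0.68, SE 0.14, adjusted p = 0.030), had smaller log2 fold changes and passed in 1 of the 6 runs with a library left out, that without mutant replicate 1 (0.012 and 0.049). No wild-type library overlapped a mutant library in any of the 4.

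In RefSeq 3 of these 4 ends have a different outermost gene, so that 37 of the 40 genes are outermost in both annotations. CMG221C (chromosome 7, 1347 to 5297) and CME205C (chromosome 5, 524079 to 527336) contain the greater part of TE_homo_926 and TE_homo_749 and were not analysed here as genes. RefSeq places CMG003C at 8645 to 9103 of chromosome 7, farther from the end than the 4542 to 4997 of the deposited annotation, so the counts given for CMG003C belong to the deposited position.

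The next genes inward were counted in the same way. Over both ends, raised calls made up 34.2% of the tested outermost genes. At position 2 their share was 10.3% (4 of 39) and at position 3 it was 2.5% (1 of 40). Lowered calls numbered 1, 0 and 2. Of all genes tested 1.29% were raised and 1.83% lowered, and the calls at position 3 were too few to be told apart from that. No test of these shares was made. Of the 13 ends with a raised first gene 1, the right end of chromosome 4, had a second gene that was not tested, CMD190C. Among the others only the left end of chromosome 10 also had a raised second gene, CMJ005C. CMJ005C had 261 ± 11.9 CPM in the wild type and 498 ± 61.6 CPM in the mutant (log2 fold change 0.93, SE 0.12, adjusted p = 0.0026). Beside it, 3 raised second genes, CMA142C, CMH282C and CMR502C, lay inward of uncalled outermost genes. CMA142C, inside CMA145C, had the largest of these rises, from 33.1, 31.7 and 25.1 CPM to 232, 277 and 204 CPM (2.99, SE 0.16, adjusted p = 1.4e-05). CMA142C and CMJ005C were also the 2 raised genes among the 4 other genes that overlap a copy of rnd-1_family-62. CMJ005C overlaps a copy of rnd-1_family-38 as well. Of the 3 other genes that overlap that family it was the 1 raised by edgeR, while DESeq2 called 2 and limma voom 1. Of other genes that overlap rnd-1_family-57 (3), rnd-1_family-2 (4) and rnd-1_family-9 (12 tested), 0 were called by edgeR, DESeq2 or limma voom, and 1, of rnd-1_family-57, had an unadjusted p under 0.05.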

How the data were processed

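RNA with poly(A) tails was sequenced as unstranded libraries, per the labels' protocols, and Trim Galore and STAR are named without versions in the submitters' processing notes. The authors deposited raw whole-number read counts per gene and per TE copy, 1 table per library. Which program counted them, and how it treated reads with several matches, is not given in the sources used here. Coordinates are those of the deposited annotations (ASM9120v1, per the file headers). Gene models hold coding sequence, with 4461 of 4463 annotated 3′ UTR features at most 4 bases long, so lengths are coding lengths.

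Mutant and wild-type counts (6 libraries) were compared in R 4.3.3 with edgeR 4.0.16 (filterByExpr with minimum count 10 and minimum total 15, TMM, glmQLFit, glmQLFTest), with Benjamini-Hochberg adjustment over 7641 rows. The SE of a log2 fold change was taken from its F statistic. CPM values use TMM-scaled library sizes. Summed CPM was compared by exact permutation tests (SciPy 1.17.1). Intervals are exact binomial at 95%, floors are 3 counts per library, and both cover counting error only. On simulated counts for this comparison (7641 rows) the edgeR step recovered 29.9% of 1.5-fold, 89.6% of 2-fold and 100% of 4-fold changes, and 5.19% of its calls were false. All simulated rows had the same dispersion and only gene rows were changed, so these rates need not hold for the real counts.

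The genes and lists were chosen with earlier results of these data known. Named with full values are all called genes, genes within 3% of the length of a called gene in its group, untested genes and the 3 highest in CPM. TE copies at those genes were eligible too, and any further name was chosen after its values were seen. Groups come from the sample titles. Library pairs within a group differed beyond counting noise (16.2 to 33.3 chi-square units for each degree of freedom). Alternatives were median-ratio, total-count and nuclear TMM scaling, no filter and a strict one (at least 10 in all libraries of one group), limma voom 3.58.1, DESeq2 1.42.0, a test against a 2-fold change, adjustment over genes only, a replicate block, each library left out, other length tolerances (1% and 5%) and overlap definitions, and, added after the data were seen, RefSeq lengths.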

Additional observations from a re-analysis of the deposited data

How the results depend on the processing

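The 13 raised genes and CMI002C kept their calls under every scaling and filter tried, limma voom, adjustment over genes only and the replicate block. DESeq2 called 15 outermost genes raised and the test against a 2-fold change 10 (CMC002C, CMJ002C and CMT636C were lost), and 12 to 15 were raised with 1 library left out. Of all tested genes DESeq2 called 115 raised and 211 lowered, the 2-fold test 16 and 8, and runs without 1 library 35 to 61 and 30 to 92. TE copies at the outermost genes called raised numbered 9 in the 2-fold test, 13 with copies outside the gene left out and 15 to 22 with 1 library left out. Raised genes with TE overlap numbered 2 when 50% coverage was required. Over 38 genes and 16 settings, 587 of 608 results kept direction and side of the threshold, 4 lost a call, 5 gained one and 12 changed sign, all in uncalled genes. The log2 fold change of CMF001C became 0.040 with total counts and 0.019 with nuclear TMM. The cause was not tested. The labels do not say what the shared replicate numbers mark. Correlations of same-numbered deviations were 0.022, 0.13 and 0.26, not every library correlated best with its own number, and the numbers were not taken to pair libraries. With the replicate number as a block 13 outermost genes were raised and 1 lowered, as without it, and of all tested genes 51 were raised and 67 lowered, against 63 and 89. Over the runs that each left out 1 library, the log2 fold change ranged from -0.093 to 0.042 for CMF001C, -0.26 to 0.35 for CMF187C, -0.0023 to 0.62 for CMG003C, -0.20 to 0.0080 for CMG220C, -0.22 to 0.071 for CMJ319C, -0.15 to 0.22 for CML339C and -0.15 to 0.0082 for CMS508C. Scaling moved the median of all genes from -0.031 to 0.029 (total counts) or 0.0050 (nuclear TMM), and 33 or 34 outermost genes stayed positive. Groups of like length with all mutant sums above the wild type numbered 6 within 1%, 5 within 5% and 5 with RefSeq lengths, against 7. Low counts limit CML001C, CMO001C and the wild-type level of CMS002C.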

Other observations

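Copies of the same repeat families also lie away from the outermost genes, and their calls by edgeR are given beside those at the ends without a test. Of all TE copies tested 7.1% were raised and 1.04% lowered. For rnd-1_family-62, 6 of 6 tested copies at the outermost genes and 0 of 3 elsewhere were raised. Of those 6, TE_homo_267 and TE_homo_559 passed the low-count filter through their mutant counts alone. TE_homo_402 (1.55, 0.770 and 0.884 CPM in the wild type) and TE_homo_560 (0.666, 0.385 and 1.39) also passed only with mutant libraries. The filter asked for 1.14 CPM in 3 libraries. For rnd-1_family-57 the raised copies were 3 of 10 and 1 of 2, and for rnd-1_family-2 they were 2 of 5 and 1 of 20. For rnd-1_family-9 they were 2 of 11, with 1 lowered, and 10 of 57, with 0 lowered. The 2 raised at the outermost genes, TE_homo_4070 and TE_homo_4411, likewise passed the filter through their mutant counts alone. The Copia family rnd-1_family-62 has 10 annotated copies in all, of which 6 overlap an outermost gene. The Mutator family rnd-1_family-59 has 9 copies, and all 9 lie over or outside 4 outermost genes.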
